A study of Mus musculus with 8 samples.

Results

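The enzymes that make phosphatidylethanolamine from ethanolamine, and those that make it from phosphatidylserine, were followed in mouse hearts. The 10 enzymes chosen for these routes were Pcyt2, Etnk1, Etnk2, Selenoi, Cept1, Pisd, Pemt, Ptdss1, Ptdss2 and Phospho1. A gene was taken as measured where an array probe set carried its symbol alone, and 7 of the 10 met this among 22180 such genes. Cept1 and Phospho1 were each named only on a probe set shared with another gene, and no probe set used here carried the symbol Etnk2, so these 3 have no values below. Each measured enzyme had 1 probe set.

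The hearts came from 4 female and 4 male mice, all 8 months old and all Pcyt2+/-, that is, with a single working copy of the gene for the second enzyme of the ethanolamine route. The labels give no strain and do not say which stretch of Pcyt2 was lost or where its probes lie. The level of Pcyt2 therefore cannot check the genotype. Hearts with both copies were not analysed here, so sex was the only factor to compare and no value below measures the loss of the allele. Hearts were frozen 3 to 4 hours after lights on, labelled as myocardium, and their RNA was read on short-oligonucleotide arrays. Deposited values are on a log scale whose base is not given and was taken as 2, and each probe set was centred on its median across the 8 arrays. It shows how a gene varied between hearts, and neither its level nor whether it was expressed at all. For the same reason the tissue label could only be checked for evenness. The mean of 10 cardiomyocyte markers lay between -0.07 and 0.03 in females and between -0.01 and 0.02 in males. Xist and the Y-linked genes Kdm5d, Uty and Eif2s3y separated the sexes as labelled in all 8 hearts.

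Phosphatidylethanolamine is a major phospholipid of the inner leaflet of the cell membrane and of the mitochondrial inner membrane. In the CDP-ethanolamine route an ethanolamine kinase phosphorylates ethanolamine, Pcyt2 turns phosphoethanolamine into CDP-ethanolamine in the step that usually limits the route, and an ethanolaminephosphotransferase joins that head group to diacylglycerol. In the other route phosphatidylserine, made in the endoplasmic reticulum by exchange of head groups, enters mitochondria and is decarboxylated there by Pisd. Pemt, best known from liver, methylates phosphatidylethanolamine to phosphatidylcholine. Bulk heart RNA pools cardiomyocytes with vessel, connective and immune cells, so fewer cells of a type and less RNA per cell cannot be told apart.

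Of the 7 measured enzymes, 5 had an annotated start in the RefSeq promoter table (build GRCm38.p6), and Pcyt2 and Ptdss1 had no entry there. The 250 bases before the start nearest the gene's own 5′ end are shown for the 3 enzymes with a start close to it (0, 16 and 19 bases away): Selenoi for the last CDP-ethanolamine step, Pisd for decarboxylation and Ptdss2 for phosphatidylserine synthesis. They are printed 5′ to 3′ along the gene, with capitals at GC boxes (GGGCGG, or CCGCCC on the other strand) and CCAAT boxes (CCAAT, or ATTGG on the other strand).
Selenoi, chr5:30232331-30232580, plus strand: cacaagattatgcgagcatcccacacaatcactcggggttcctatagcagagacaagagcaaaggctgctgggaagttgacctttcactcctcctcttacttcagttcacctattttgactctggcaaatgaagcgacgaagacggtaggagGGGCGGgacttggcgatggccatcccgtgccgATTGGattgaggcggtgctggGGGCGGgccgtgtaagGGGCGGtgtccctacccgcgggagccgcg
Pisd, chr5:32785627-32785876, minus strand: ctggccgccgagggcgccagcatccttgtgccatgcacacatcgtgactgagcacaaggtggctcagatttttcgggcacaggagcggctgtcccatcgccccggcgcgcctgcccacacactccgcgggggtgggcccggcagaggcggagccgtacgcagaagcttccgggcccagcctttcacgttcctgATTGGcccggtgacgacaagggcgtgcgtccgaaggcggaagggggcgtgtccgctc
Ptdss2, chr7:141131036-141131285, plus strand: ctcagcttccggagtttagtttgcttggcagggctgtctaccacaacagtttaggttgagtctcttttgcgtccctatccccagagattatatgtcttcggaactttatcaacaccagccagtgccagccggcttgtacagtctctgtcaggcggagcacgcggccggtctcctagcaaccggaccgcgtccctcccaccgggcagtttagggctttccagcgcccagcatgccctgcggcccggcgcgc
The Selenoi window held 3 GC boxes and 1 CCAAT box, the Pisd window 1 CCAAT box and no GC box, and the Ptdss2 window neither. The motifs shared 0 bases with each other. Over all 7 starts listed for the 5 enzymes, 2 windows held a GC box and 3 a CCAAT box, against 32.7% and 33.8% of the 32851 windows in the table. None of the 7 held TATAAA or its reverse complement TTTATA, which 12.4% of all windows hold. These matches describe the windows only.

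Pcyt2, the targeted gene, had values of -0.03, 0.24, 0.0071 and -0.06 in females 1 to 4 and of -0.13, -0.0071, 0.32 and 0.19 in males 1 to 4. One female heart and 2 male hearts were high, the other 5 lay between -0.13 and 0.0071, and the sexes overlapped. The mean was 0.04 ± 0.14 in females and 0.09 ± 0.20 in males (SD, n = 4 each). The difference, females minus males, was -0.05 ± 0.10 (SE), with a 95% interval from -0.28 to 0.18, so a gap beyond 1.22-fold in either direction lies outside it.

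Etnk1, the kinase that makes phosphoethanolamine for Pcyt2, had values of 0.07, -0.0080, 0.0080 and 0.03 in females and of -0.06, 0.10, -0.02 and -0.01 in males. Male 2 was the highest heart and male 1 the lowest, with all 4 females between them. The difference was 0.02 ± 0.04 (SE), and its interval from -0.07 to 0.11 was the narrowest of the 7 enzymes.

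Selenoi, a selenoprotein and the ethanolaminephosphotransferase that uses the product of Pcyt2, had values of -0.08, 0.05, -0.0061 and 0.04 in females and of -0.18, 0.0092, 0.0061 and -0.06 in males. Male 1 stood lowest, female 1 next, and the other hearts of both sexes mixed. The difference was 0.06 ± 0.05 (SE), with an interval from -0.06 to 0.17.

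Ptdss1, which makes phosphatidylserine mainly from phosphatidylcholine, had values of 0.09, -0.04, 0.00025 and -0.11 in females and of 0.05, -0.03, 0.05 and -0.00025 in males. The female values held both the highest and the lowest heart. The difference was -0.03 ± 0.05 (SE, interval -0.13 to 0.07).

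Ptdss2, which makes phosphatidylserine from phosphatidylethanolamine, had values of 0.11, 0.03, -0.11 and -0.02 in females and of -0.05, -0.09, 0.07 and 0.02 in males. Here too a female heart was highest and another lowest. The difference was 0.01 ± 0.05 (SE, interval -0.11 to 0.14). Ptdss1 and Ptdss2 were both highest in female 1 but lowest in different hearts, females 4 and 3.

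Pisd, the mitochondrial decarboxylase that turns phosphatidylserine into phosphatidylethanolamine, had values of 0.32, -0.12, -0.0045 and 0.18 in females and of -0.04, -0.14, 0.04 and 0.0045 in males. Females 1 and 4 stood above all other hearts, while female 2 lay near the lowest male, so the sexes overlapped. The mean was 0.09 ± 0.19 in females and -0.03 ± 0.08 in males (SD, n = 4 each). The difference of 0.13 ± 0.09 (SE, interval -0.07 to 0.32) was the largest in size of the 7 enzymes over all 8 hearts, and 1.25-fold bounds the interval. It rested in part on female 1. Without that heart it was 0.051, smaller in size than the 0.086 of Selenoi, the 0.068 of Pemt and the -0.066 of Ptdss1. Over the 8 analyses that each left out 1 heart, the difference of Pisd ran from 0.051 to 0.196.

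Mouse has 3 annotated pseudogene copies of Pisd, and how far their transcripts bind each other's probes is not given in the sources used here. Pisd-ps1 had values of 0.02, -0.11, 0.22 and -0.15 in females and of 0.07, 0.0020, -0.0020 and -0.25 in males. In female 4, where Pisd was high, Pisd-ps1 was low, while in female 2 both were low (-0.12 for Pisd and -0.11 for Pisd-ps1). Pisd-ps3 had values of -0.28, -0.04, -0.03 and 0.03 in females and of 0.20, 0.04, 0.28 and -0.21 in males, lowest in the female heart where Pisd was highest. Among males, Pisd and Pisd-ps3 were both highest in male 3. Pisd-ps2 had values of 0.0092, -0.13, 0.24 and -0.14 in females and of -0.0054, -0.04, 0.02 and 0.0054 in males. The differences were 0.04 ± 0.09 (SE) for Pisd-ps1, -0.16 ± 0.11 (SE) for Pisd-ps3 and -0.0022 ± 0.08 (SE) for Pisd-ps2. Single hearts thus go both ways, and whether the probes of Pisd and its pseudogenes share signal was not tested.

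Pemt, the methyltransferase, had values of 0.04, 0.02, 0.17 and -0.04 in females and of -0.02, -0.07, 0.06 and -0.03 in males. Female 3 stood above the other hearts, and female 4 lay among the males. The difference was 0.07 ± 0.05 (SE, interval -0.05 to 0.18).

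**Figure D1:**
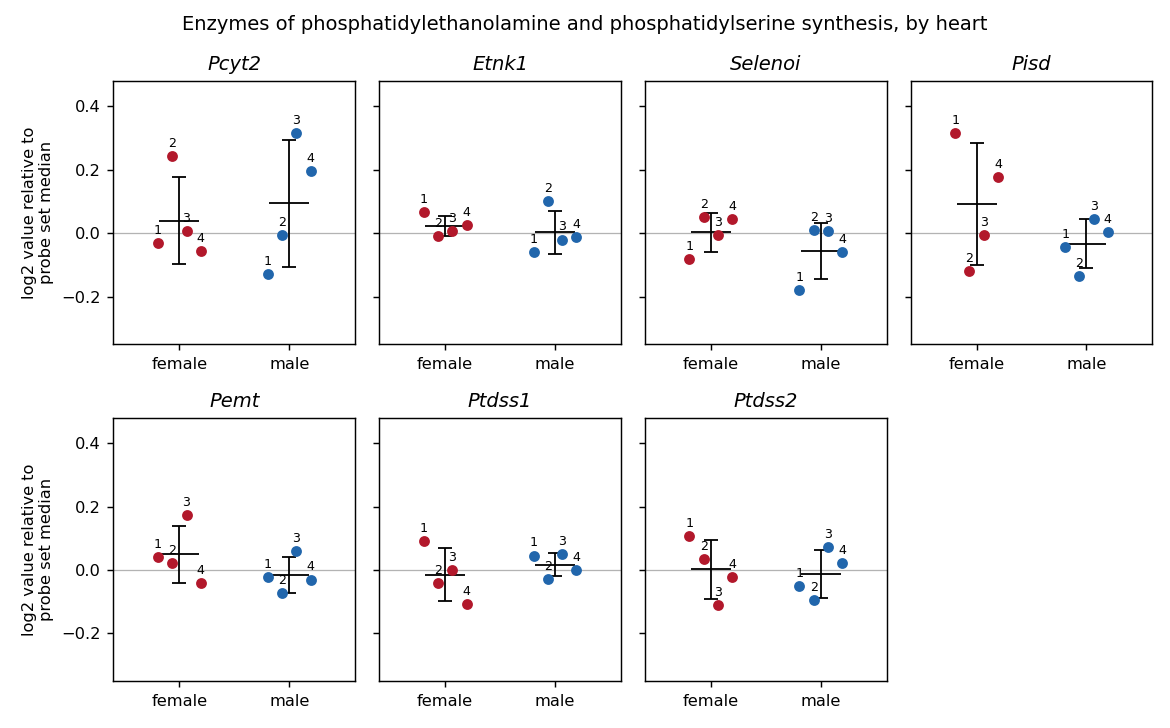
Log2 value relative to the probe set median (y axis) of the 7 measured enzymes in each female and male heart. Points are hearts with their replicate number, and black marks are the mean ± SD of 4 hearts. The female and male values overlap for all 7, and the widest scatter is that of Pcyt2 and Pisd.

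No measured enzyme differed between the sexes past the threshold. Of the 7, 0 had an adjusted p under 0.05 in limma's test with Benjamini-Hochberg adjustment over all genes, against 0.0316% of the 22180 genes (7 genes). At an unadjusted p under 0.05 the enzymes again counted 0, against 6.96% of all genes, and 0 had female and male values that did not overlap, against 3.74% of all genes. Their adjusted p ran from 0.847 for Pisd to 0.987 for Ptdss2. The means of 5 enzymes were higher in females (Etnk1, Selenoi, Pisd, Pemt and Ptdss2) and those of Pcyt2 and Ptdss1 in males. Their median difference was 0.02, against -0.00058 for all genes. The exact two-sided permutation test over the 8 hearts gave p from 0.286 for Pisd to 0.83 for Ptdss2, where 4 against 4 hearts can reach 0.0286 at best. A p that misses the threshold does not show that the sexes are alike, and the intervals above give what these hearts leave possible. In this fit of all 8 hearts the interval reaching farthest was that of Pisd, to 1.25-fold. That does not bound the fits with arrays left out.

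**Figure D2:**
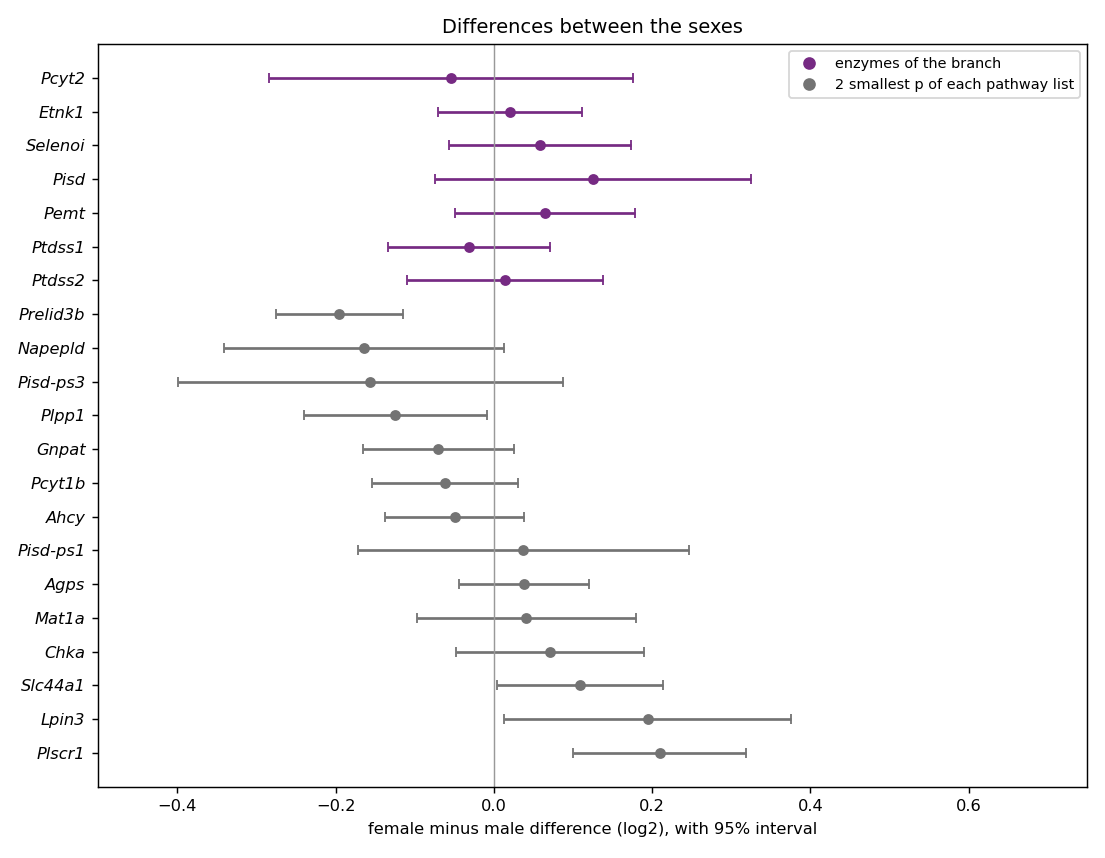
Female minus male difference on the log2 scale (x axis) with its 95% interval for the 7 measured enzymes (purple) and for the 2 genes with the smallest p of each surrounding pathway list (grey). The intervals of all 7 enzymes include 0, and those of Prelid3b and Plscr1 lie farthest from it.

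Within the same animals the enzymes differed in how far they varied. Pcyt2 spanned 1.36-fold and Pisd 1.37-fold between the lowest and the highest heart. The SD over the 8 hearts was 0.16 for Pcyt2 and 0.15 for Pisd, larger than that of 95.2% and 93.8% of all genes. With the sex means removed these shares were 96.5% and 93.1%. The other 5 enzymes lay near or below the middle of all genes, whose median SD was 0.075. Ptdss2, Pemt and Selenoi had an SD of 0.078, 0.077 and 0.077, Ptdss1 had 0.062, and Etnk1 had 0.051, larger than that of 23.9% of genes. Etnk1 thus spanned 1.12-fold over the 8 hearts, while Pcyt2, which acts on its product, spanned 1.36-fold. These ranks are a description, since a probe set's spread also holds its measurement noise and the brightness of the probe sets is not known here.

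**Figure D3:**
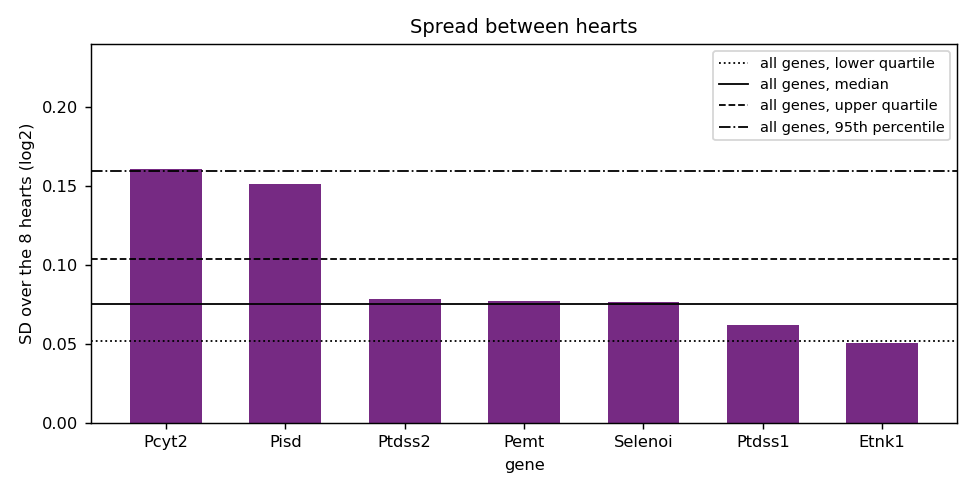
SD over the 8 hearts on the log2 scale (bars, y axis) of the 7 measured enzymes, with lines at the lower quartile, median, upper quartile and 95th percentile of all 22180 genes. Pcyt2 reaches just above the 95th percentile line and Pisd just below it, and the other 5 stay under the upper quartile.

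Pcyt2 and Pisd, the most variable of the 7, were set side by side heart by heart. Pcyt2 was highest in male 3, male 4 and female 2, where Pisd stood at 0.04, 0.0045 and -0.12. Pisd was highest in females 1 and 4, where Pcyt2 stood at -0.03 and -0.06. Among females the heart with the highest Pcyt2 thus had the lowest Pisd, while among males the same hearts, male 3 and then male 4, were highest in both. With 4 hearts in each sex no correlation within a sex was tested. Pooled over all 8 hearts, which mixes these opposite orders, the pair's correlation did not pass a test (Pearson r = -0.26, exact permutation p = 0.554, and Spearman rho = -0.12, exact permutation p = 0.793), and without the 2 hearts farthest from the median of Pcyt2 r was -0.13.

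The 21 pairs among the 7 enzymes gave Pearson r from -0.67 to 0.55 over the 8 hearts, 12 above 0 and 9 below. After Benjamini-Hochberg adjustment over the 21 pairs the smallest exact permutation p was 0.974 for Pearson's r and 0.772 for Spearman's rho. The lowest pair was Selenoi with Ptdss1, with r = -0.67 (exact permutation p = 0.071) and rho = -0.76 (exact permutation p = 0.0368, adjusted 0.772), and r was -0.56 without the 2 hearts farthest from the median of Selenoi. The highest was Pisd with Ptdss2, with r = 0.55 (exact permutation p = 0.16), rho = 0.57 (exact permutation p = 0.151) and r = 0.35 without the 2 farthest hearts. By pooled Pearson r, Pcyt2 stood nearest to Ptdss2 (r = 0.49, exact permutation p = 0.208, rho = 0.33, p = 0.428) and Selenoi (r = 0.46, exact permutation p = 0.257, rho = 0.40, p = 0.327), and r was 0.19 and 0.23 without the 2 farthest hearts. By rho the order differed, with Selenoi and Pemt both at 0.40 and Ptdss2 below them. No pair of enzymes passed the adjustment.

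**Figure D4:**
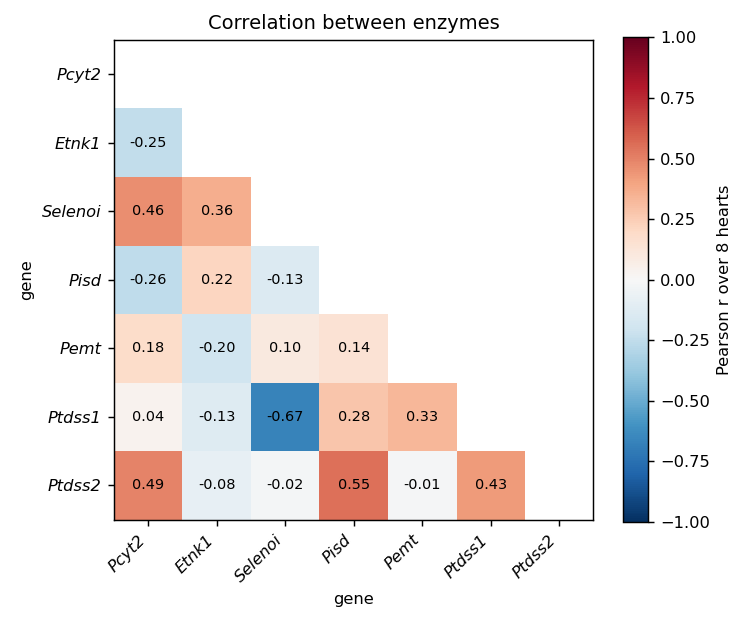
Pearson r over the 8 hearts for each of the 21 pairs of measured enzymes (rows and columns are genes, colour and number give r). The values run from -0.67 for Selenoi with Ptdss1 to 0.55 for Pisd with Ptdss2.

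The 3 genes whose values most resembled those of Pcyt2 over the 8 hearts, by Pearson r after subtracting each sex's mean, were Ibtk (r = 0.98), Rnf31 (0.98) and Gpr165 (0.98). Without that subtraction r was 0.89, 0.95 and 0.76 in the same order, and Gpr165 spanned only 1.09-fold over the 8 hearts. The search left out predicted genes, microRNAs, small nucleolar RNAs and olfactory and vomeronasal receptors from the 22180 genes. These 3 were the highest among the rest, so their r values are a description with no test. Rnf31, the catalytic subunit of the linear ubiquitin ligase complex, had values of -0.01, 0.12, 0.0049 and -0.0049 in females and of -0.10, -0.03, 0.15 and 0.04 in males. Like Pcyt2 it was high in female 2, male 3 and male 4. On the same measure the other 6 enzymes ranged from -0.22 for Etnk1 to 0.60 for Selenoi.

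Around these enzymes, 7 lists of 53 genes covered the supply of ethanolamine, the CDP-choline branch, the supply of diacylglycerol, the movement of phosphatidylserine, the methyl donor of Pemt, ether phospholipids and the Pisd pseudogenes. Of the 50 measured, 0 passed an adjusted p under 0.05, against 0.0316% of all genes. Of these 50, 22 averaged higher in females and 28 in males, and the median difference was -0.0058. At an unadjusted p under 0.05 the lists counted 5 genes of 50, against 6.96% of all genes, and 2 of 50 had values that did not overlap, against 3.74%.

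The count of 2 genes without overlap among 50 is near the share of 3.74% over all genes. Both were on the list of phosphatidylserine transport and exposure, and whether that list stands out was not tested. Prelid3b, whose protein carries phosphatidylserine across the space between the mitochondrial membranes towards the decarboxylase, as known from yeast and human cells, had values of -0.08, -0.06, -0.10 and -0.16 in females and of 0.06, 0.13, 0.13 and 0.06 in males. All 4 females lay below all 4 males. The mean was -0.10 ± 0.04 in females and 0.10 ± 0.04 in males (SD, n = 4 each). The difference was -0.20 ± 0.04 (SE, limma unadjusted p = 0.000367), or 1.14-fold in size. It did not pass over all genes (adjusted p = 0.267, and 0.188 to 0.66 over the alternatives), and the exact permutation test gave p = 0.0286, the smallest it can reach. Its direction was the same in all 22 alternatives, with differences from -0.22 to -0.18. Because the sexes did not overlap, leaving arrays out could not reverse it, and several other alternatives leave the difference unchanged by construction. The lack of overlap also fixed the exact p, so neither is separate support.

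Triap1, the partner of Prelid3b in that transfer, had a difference of 0.02 ± 0.09 (SE), and the related Prelid3a one of 0.03 ± 0.06 (SE). Plscr1, a phospholipid scramblase gene that interferon also induces, had values of 0.05, 0.02, 0.11 and 0.16 in females and of -0.18, -0.02, -0.13 and -0.19 in males. All 4 females lay above all 4 males, by a narrow gap between female 2 and male 2. The difference was 0.21 ± 0.05 (SE, limma unadjusted p = 0.00184, adjusted p = 0.446). The 13 measured genes of phosphatidylserine transport and exposure held 7 that averaged higher in females and 6 in males, and their median difference was 0.01. The flippase genes Atp8a1, Atp8a2 and Atp11a had differences of -0.09, -0.12 and 0.04, the flippase subunit gene Tmem30a had 0.06, and the scramblase genes Xkr8, Ano6 and Plscr3 had 0.01, -0.02 and -0.15.

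**Figure D5:**
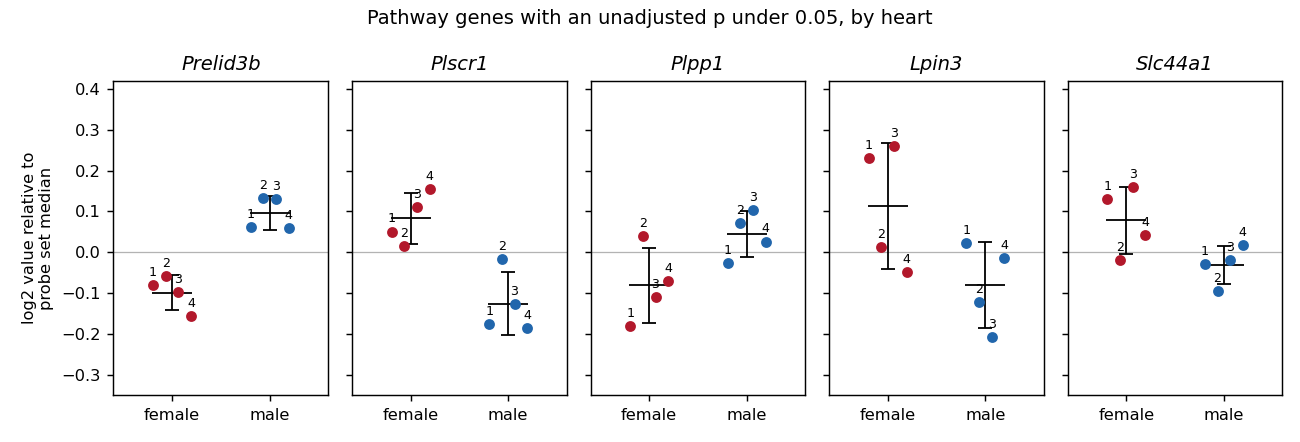
Log2 value relative to the probe set median (y axis) of the 5 surrounding pathway genes with an unadjusted p under 0.05, in each female and male heart. Points are hearts with their replicate number, and black marks are the mean ± SD of 4 hearts. The sexes are apart for Prelid3b and Plscr1 and overlap for Plpp1, Lpin3 and Slc44a1.

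Diacylglycerol, which Selenoi joins to the ethanolamine head group, is made by the lipins and the lipid phosphate phosphatases. Of these 6 genes 1 had a higher mean in females and 5 in males, with a median difference of -0.04. Plpp1 had a difference of -0.12 ± 0.05 (SE, limma adjusted p = 0.683) and Lpin3 one of 0.19 ± 0.08 (SE, limma adjusted p = 0.688), in opposite directions. Lpin3 stood at 0.23 and 0.26 in females 1 and 3, at 0.01 and -0.05 in females 2 and 4, and between -0.21 and 0.02 in the males. Lpin1, the main lipin gene of heart muscle, had a difference of -0.08 ± 0.04 (SE).

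Of the 12 genes that supply or break down ethanolamine, 6 averaged higher in females and 6 in males, with a median difference of -0.0014. Slc44a1, a transporter of choline and ethanolamine, had values of 0.13, -0.02, 0.16 and 0.04 in females and of -0.03, -0.09, -0.02 and 0.02 in males, a difference of 0.11 ± 0.05 (SE, limma adjusted p = 0.701). Its relative Slc44a2 had a difference of -0.12 ± 0.08 (SE). Napepld, which makes N-acylethanolamines, had one of -0.16 ± 0.08 (SE, limma adjusted p = 0.726). Sgpl1, the lyase that releases phosphoethanolamine from sphingosine phosphate, had one of -0.0051 ± 0.04 (SE), and Etnppl, which breaks phosphoethanolamine down, one of -0.05 ± 0.05 (SE).

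In the sister CDP-choline branch, of the 4 measured genes 1 had a higher mean in females and 3 in males, with a median difference of -0.04. Chka, a choline kinase that also accepts ethanolamine, had a difference of 0.07 ± 0.05 (SE). Pcyt1a and Pcyt1b, the choline counterparts of Pcyt2, had -0.05 ± 0.06 and -0.06 ± 0.04 (SE), and Chpt1, the choline counterpart of Selenoi, had -0.03 ± 0.04 (SE). Among the 5 measured genes around the methyl donor of Pemt, with a median difference of 0.0041, Ahcy, which clears the product that inhibits methyltransferases, had -0.05 ± 0.04 (SE) and the liver enzyme gene Mat1a had 0.04 ± 0.06 (SE). Of the 7 genes of ether phospholipid synthesis and turnover 3 averaged higher in females and 4 in males, with a median difference of -0.0065, and Gnpat and Agps, the first enzymes of that route, had -0.07 ± 0.04 and 0.04 ± 0.04 (SE). No gene of these 3 lists had an unadjusted p under 0.05, against 6.96% of all genes.

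Markers of other tissues differed between hearts, and the values of Pcyt2 and Pisd are given with and without the arrays concerned. The fast skeletal myosin gene Myh4 was highest in male 2 (2.23), male 1 (1.57) and female 1 (1.03), and Pcyt2 stood at -0.0071, -0.13 and -0.03 in these. Of 11 fast skeletal markers 1 had a higher mean in females and 10 in males, and their mean ran from -0.22 to 0.30 in females and from -0.21 to 0.78 in males. Without those 3 arrays the difference of Pcyt2 was -0.19 ± 0.10 (SE, limma adjusted p = 0.748) and that of Pisd -0.0067 ± 0.09 (SE). The only males left were then males 3 and 4, those with the highest Pcyt2 (0.32 and 0.19). The arrays left out also held the highest Pisd, in female 1, and the lowest, in male 2. In another fit the mean of the fast skeletal markers was a covariate in all 8 hearts. The difference there was -0.12 ± 0.09 (SE) for Pcyt2 and 0.11 ± 0.10 (SE) for Pisd. The plasma protein gene Alb was highest in female 2 (2.69) and female 1 (1.76), and the means of 10 liver markers ran from -0.02 to 0.45 in females and from -0.05 to -0.02 in males, 9 of them higher in females. Without those 2 arrays, which left females 3 and 4 as the only females, Pcyt2 had a difference of -0.12 ± 0.12 (SE) and Pisd one of 0.12 ± 0.07 (SE).

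Of 7 atrial muscle markers, Myl7 among them, all had higher means in females, and their mean ran from -1.10 to 0.49 in females and from -0.91 to 0.23 in males. Of 10 adipocyte markers, Adipoq among them, 7 had higher means in females, with list means from -0.11 to 0.36 in females and from -0.14 to 0.05 in males. With the adipocyte mean as a covariate the difference of Selenoi was -0.0018. That of Pcyt2 was -0.06 with the atrial mean, -0.11 with the adipocyte mean and -0.16 ± 0.12 (SE) with the liver mean. That of Pisd was 0.15, 0.15 and 0.20 in the same order. At an unadjusted p under 0.05 the adipocyte list counted 3 of 10 genes, the endothelial list 3 of 7 and the fibroblast list 2 of 7, against 6.96% of all genes. The sexes did not overlap for 1 of the 10 adipocyte markers and for no marker of the other lists, against 3.74% of all genes. No marker of any list passed after adjustment, against 0.0316% of all genes. The remaining lists had 2 of 7 endothelial, 4 of 7 fibroblast, 4 of 7 macrophage, 3 of 7 cartilage and bone, 0 of 2 measured erythroid and 4 of 10 cardiomyocyte markers with higher means in females. Because values are relative, which of these markers were near background is not known. Their part in the enzymes' values was not tested beyond these settings.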

How the data were processed

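RNA of 8 hearts was measured on 8 arrays from biotin-labelled material of 100 ng of total RNA, per the labels' protocols. The authors deposited log values, taken here as log2, for 34351 probe sets. The median over arrays was 0 for all 34351 (tolerance 1e-06), and array medians lie between -0.0021 and 0.0023. How background, normalization and summarization were handled, and which log base was used, is not given in the sources used here. Centred values hold no brightness, so no filter on dim probe sets could be applied, and the number of arrays limits the precision.

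Names came from GEO's platform annotation: 23521 probe sets had 1 symbol, 1814 had several and 9016 were unnamed here. Entrez IDs of 23328 matched RefSeq, with 0 symbols updated. Probe sets were averaged per gene. Females minus males was fitted over all genes with limma 3.58.1 in R 4.3.3 (lmFit, eBayes, sex as the only term). The code of the limma fit was tested on simulated data with independent normal noise. All 10 enzymes, the 2 genes with the smallest p of each pathway list, the 3 genes most like Pcyt2 and the sex-linked and tissue marker genes Xist, Kdm5d, Uty, Eif2s3y, Myh4, Alb, Adipoq and Myl7 were named by rule, and other named genes were chosen after their values were seen. Peds1 was matched as Tmem189. The enzymes and lists were chosen with earlier results of these data known. The labels call the hearts biological replicates.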

Additional observations from a re-analysis of the deposited data

How the results depend on the processing

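Over 22 alternatives (quantile normalization, median centring, median of probe sets, each probe set by itself, robust variance priors with a trend, weighted arrays, the replicate block, 4 marker covariates, autosomal genes only, the arrays with high Myh4 or Alb left out, and each array left out), 0 of the 7 enzymes passed the threshold, with a smallest adjusted p of 0.708, and 0 of the 14 named surrounding genes did, with a smallest of 0.188 (21 alternatives for Pcyt1b, Pisd-ps3, Chka and Ahcy, which lacked a value in 1). Etnk1 and Pemt kept their direction in all 22, but Etnk1 fell to 0.00021 without male 1. Some alternatives cannot change the difference of an autosomal gene with 1 probe set. These are the probe set settings, the variance priors, the replicate block and the fit of autosomal genes only. With the adipocyte covariate the difference turned to -0.0018 for Selenoi and 0.0264 for Ptdss1. Ptdss2 turned to -2.2e-05 with the fast skeletal covariate, -0.0398 with the liver covariate, -0.0814 without the 3 arrays highest in Myh4 and -0.0547 without the 2 highest in Alb, and Pisd to -0.0067 without the first 3. Mat1a turned to -0.0756 with the liver covariate and -0.0636 without the 2 highest in Alb. The cause of these turns was not tested. With each array left out in turn, differences ran from 0.0506 to 0.196 for Pisd (lowest without female 1), from -0.13 to 0.0201 for Pcyt2 (0.0201 without male 3), from -0.0207 to 0.052 for Ptdss2 (below 0 without female 1 or male 2), from -0.0105 to 0.0843 for Mat1a (below 0 without female 2) and from -0.0377 to 0.0858 for Pisd-ps1 (below 0 without female 3 or male 4). The count of all genes past the threshold, 7 in the analysis reported, was 3 with quantile normalization, 4 with the liver covariate and 4 to 7 with an array left out (4 without male 3). Among autosomal genes only it was 0 by limma, with 1453 at an unadjusted p under 0.05. The labels do not say whether female and male hearts of the same replicate number had more than that number in common. Their deviations from the sex means correlated at 0.14, 0.097, 0.0062 and 0.091 across genes, and 3 of the 4 matched their own number best. What lay behind this was not tested. With the replicate block 8 genes passed, Pcyt2 had a difference of -0.05 and the adjusted p of Prelid3b was 0.475. With 4 hearts per sex, the median SE of a difference was 0.05 over all genes, which limits what could be seen.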
